A study of Drosophila melanogaster with 2 samples.

Results

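By symbol, 93 genes were chosen as the cytosolic ribosomal protein genes of Drosophila melanogaster, from the 13945 protein-coding genes of Ensembl release 115. A gene was taken when its symbol starts with RpL (large subunit) or RpS (small subunit), or when it is sta, which encodes the small subunit protein also called RpSA. Genes of the mitochondrial ribosome were not taken. The rule gave 54 genes of the large and 39 of the small subunit. Subunits follow the symbol, also for RpL7-like, RpL24-like and RpLP0-like, whose counterparts in yeast are ribosome assembly factors. Chromatin immunoprecipitation sequencing with an anti-GFP antibody had been done on whole embryos, male and female together, aged 0 to 24 h, of the transgenic strain CG9876-GFP, which carries CG9876, a homeobox protein of the paired-like class, with GFP joined at its C-terminal end. There was 1 group with 2 biological replicates and no treatment, both replicates carried the same transgene, and the control libraries were not analysed here. All values therefore describe where the tagged protein was recovered, from all cells of embryos at many stages together, and cells of different types or ages cannot be told apart. With 1 group there was no contrast to test.

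Cells need ribosomal proteins in near-equal amounts, and flies with a single working copy of many of these genes develop slowly and have short bristles, the Minute phenotype. Ribosomal protein genes of animals share an unusual core promoter, in which transcription starts within a polypyrimidine stretch, the TCT initiator, in place of the common initiator. In Drosophila the DNA replication-related element (DRE), bound by the factor DREF, is another element of housekeeping promoters, and the E-box bound by Myc and Max is found at many growth genes. A few ribosomal proteins are encoded by a pair of gene copies, and in some pairs one copy is used mainly in the germ line.

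For each gene, the regions with a summit within 1 kb of any of its transcription start sites (TSSs) were taken, and a gene was called bound when such a region stood in the authors' list of 2433 reproducible regions. Signal is the authors' value per region, in their own unit, and is given here for the list made from both replicates combined unless a replicate is named. The region of each bound gene had the same signal and rank in the reproducible and the combined list. A gene called bound need not have a region in each replicate, and RpS3A had none in replicate 1. Distances run from the TSS of the gene nearest to the summit, with negative values upstream. Sequence comes from the RefSeq dm6 genome, from 120 bases before to 30 bases from the TSS, 5′ to 3′ on the strand of the gene. The first set shows strongly bound promoters with different elements, and the second shows pairs of copies of which 1 was bound. Capitals mark TCT initiators (CTTT with a C or T on either side of it, sense strand, within 20 bases of the TSS), the DRE (TATCGATA) and the E-box CACGTG.
RpS27, chr3R:25247485-25247634, minus strand: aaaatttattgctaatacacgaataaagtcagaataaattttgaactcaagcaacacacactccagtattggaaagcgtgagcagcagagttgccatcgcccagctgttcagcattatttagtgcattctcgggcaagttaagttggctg
RpL23A, chr3L:1668625-1668774, minus strand: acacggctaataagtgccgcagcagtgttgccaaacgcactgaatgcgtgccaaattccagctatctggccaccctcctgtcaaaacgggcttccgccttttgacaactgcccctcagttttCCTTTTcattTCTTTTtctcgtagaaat
RpL34b, chr3R:9401197-9401346, minus strand: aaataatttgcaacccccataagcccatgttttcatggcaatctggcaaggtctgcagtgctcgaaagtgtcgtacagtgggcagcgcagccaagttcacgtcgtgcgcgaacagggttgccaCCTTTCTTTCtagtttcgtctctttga
RpL24, chr2L:13395102-13395251, minus strand: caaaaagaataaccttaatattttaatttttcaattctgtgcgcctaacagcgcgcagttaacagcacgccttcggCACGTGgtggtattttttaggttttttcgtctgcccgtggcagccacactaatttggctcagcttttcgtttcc
RpS25, chr3R:11216258-11216407, minus strand: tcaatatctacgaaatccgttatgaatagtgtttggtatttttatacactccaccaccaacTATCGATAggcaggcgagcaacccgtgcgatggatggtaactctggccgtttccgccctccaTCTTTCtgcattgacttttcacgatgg
RpS5a, bound, chrX:17148235-17148384, minus strand: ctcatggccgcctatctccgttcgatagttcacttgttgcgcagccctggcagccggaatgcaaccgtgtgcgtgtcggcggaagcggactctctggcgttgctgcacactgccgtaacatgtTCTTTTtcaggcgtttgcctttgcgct
RpS5b, not bound, chr3R:14901534-14901683, minus strand: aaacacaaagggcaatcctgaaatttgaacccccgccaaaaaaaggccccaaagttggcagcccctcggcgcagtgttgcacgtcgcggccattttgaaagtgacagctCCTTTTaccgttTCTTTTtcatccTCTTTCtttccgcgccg
RpS28b, bound, chrX:9554503-9554652, plus strand: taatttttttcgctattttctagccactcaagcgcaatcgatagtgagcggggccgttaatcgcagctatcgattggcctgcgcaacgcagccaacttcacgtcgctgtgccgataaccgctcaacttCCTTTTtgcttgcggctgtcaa
RpS28a, not bound, chr3R:30022619-30022768, minus strand: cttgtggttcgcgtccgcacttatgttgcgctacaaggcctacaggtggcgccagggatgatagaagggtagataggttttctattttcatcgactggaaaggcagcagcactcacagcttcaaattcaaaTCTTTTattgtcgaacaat
RpL10Ab, bound, chr3L:11822731-11822880, plus strand: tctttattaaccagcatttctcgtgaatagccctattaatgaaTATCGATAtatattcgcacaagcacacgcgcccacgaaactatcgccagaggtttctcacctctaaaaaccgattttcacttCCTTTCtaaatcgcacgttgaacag
RpL10Aa, not bound, chr3R:15037246-15037395, plus strand: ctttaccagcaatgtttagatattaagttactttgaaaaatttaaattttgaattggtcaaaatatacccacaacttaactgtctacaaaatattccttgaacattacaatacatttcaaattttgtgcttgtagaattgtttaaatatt
The RpL34b promoter has 2 overlapping matches to the TCT initiator, that of RpL24 has an E-box 44 bases upstream, and that of RpS25 has both a DRE and a TCT initiator. RpS5b, which was not bound, has 3 matches to the TCT initiator, and RpL10Aa has none of these elements in the window shown. RpS27 also shows none at the TSS nearest to its summit, though another of its TSSs has a TCT initiator.

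A region of the reproducible list lay at 71 of the 93 promoters (76.3%), where 15.8% of all protein-coding genes were bound. No interval is given for this share, since the 93 genes are the whole chosen set and not a sample. Both subunits took part, with 44 of 54 large subunit genes (81.5%) and 27 of 39 small subunit genes (69.2%). Signals at the bound promoters ran from 88.9 to 802.9 with a median of 202.6, and the median at the 2128 other bound genes was 136.2. Of the 71, 49 lay above the median of all reproducible regions, 128.1. By rank of signal, 6 of the 100 strongest reproducible regions lay at these promoters, 22 of the first 250 and 36 of the first 500. In the whole list, 73 of the 2433 regions had a summit within 1 kb of a ribosomal protein TSS.

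**Figure D1:**
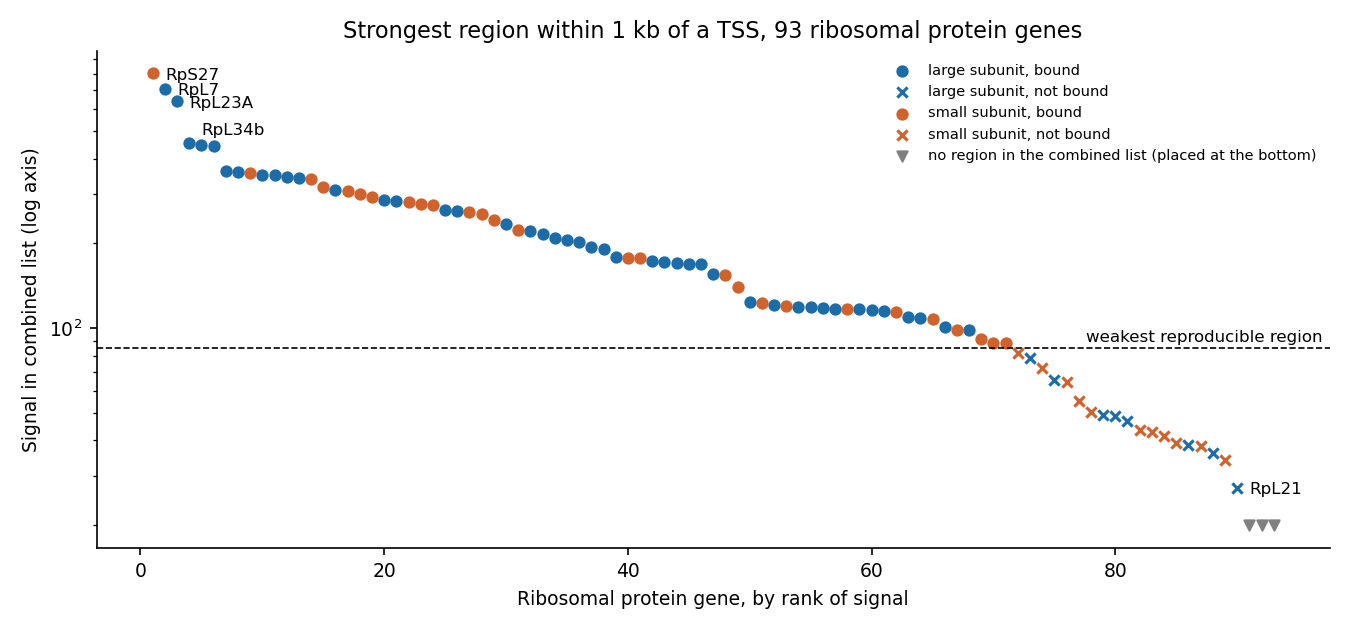
Signal of the strongest combined region within 1 kb of a TSS (log axis) for the 93 genes, ordered by signal, blue for the large and orange for the small subunit; dots are bound genes, crosses are not, and the dashed line is the weakest reproducible region (85.4). The signal falls from RpS27 (802.9) to RpL21 (27.2) without a gap at the line, and 3 genes have no combined region.

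RpS27, a small subunit protein with a zinc finger, had the highest signal of the group, 802.9, with 481.4 in replicate 1 and 318.0 in replicate 2 and its summit at -13 bp. RpL7 of the large subunit followed with 706.4, or 387.7 and 324.3 in the replicates, at +29 bp and inside its 5′ UTR. RpL23A, whose protein sits at the exit of the peptide tunnel, had 639.0 (334.6 and 295.5) at -102 bp. These 3 lay apart from the rest, since the next value was 453.0. That value belonged to RpL34b (264.4 and 184.3), at -45 bp. RpL14 had 446.8 (209.7 and 226.4) at -32 bp. RpL32, long used as a reference gene under the name rp49, had 443.2 (233.3 and 216.0) at -77 bp. These are the 6 promoters among the 100 strongest reproducible regions.

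The other 4 of the 10 strongest lay close together, between 349.8 and 361.2. RpL41, which encodes a very short protein, had 361.2 (167.9 in replicate 1 and 187.7 in replicate 2, summit at -85 bp). RpL17 had 357.9 (192.7 and 161.2, -78 bp). RpS20 had 354.5 (202.1 and 158.5, -103 bp), and RpL28 had 349.8 (197.3 and 130.1, -48 bp). Replicate 2 ordered these 4 genes as the combined list did, and replicate 1 did not. All 10 were among the 2433 strongest regions of each replicate, and RpS27 and RpS20 were the small subunit genes among them.

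Genes with special roles in the ribosome were spread over the range of signal. Of the stalk, which recruits the translational GTPases, RpLP0 had 342.9 and RpLP1 116.9, and RpLP2 was not bound (78.3). RpL11 and RpL5, which join the ribosome together with 5S rRNA, had 282.7 and 115.5. Of the 3 ribosomal proteins made as fusions to ubiquitin or a ubiquitin-like protein, RpS27A had 223.6 and RpS30 119.5, and RpL40 was not bound (49.3). RpS6, the phosphorylated target of the TOR pathway, had 89.0, close to the weakest reproducible region, and sta had 122.9. Neither the stalk nor the fusion genes were all bound.

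The line between bound and unbound genes fell within a continuous range. RpS6 (89.0) and RpS15 (91.3), both of the small subunit, were among the weakest bound genes. The 3 strongest unbound genes were RpS26 (81.5), RpLP2 (78.3) and RpS28a (72.1). RpS26 ranked 2610 in the combined list, just past the reproducible regions. RpLP2 had 28.7 in replicate 1 and 59.6 in replicate 2, and its region was among the strongest 2433 of replicate 2, the one unbound gene for which this held in either replicate.

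Of the 22 unbound genes, 19 had a weaker candidate region in the combined list, with a median signal of 47.0. Below the 3 above, they included RpL12 (65.3), RpS28-like (64.7), RpS24 (50.5), RpL40 (49.3), RpL24-like (48.8), RpL6 (47.0), RpS13 (43.5), RpS3 (42.9), RpS9 (41.3), RpS5b (39.2), RpL37-2 (38.5), RpS10a (38.1), RpL7-like (36.0), RpS2 (34.2) and RpL21 (27.2). RpL21 ranked 29944 of the 30000 candidates. The summit lay within 100 bp of the TSS at 6 of the 19, against 63 of the 71 bound genes. RpS15Ab, RpL22-like and RpL10Aa had no combined candidate, and of these RpL10Aa had 1 in replicate 1 alone (18.6). The candidate lists reach into background by design: counting any combined candidate, 90 of the 93 genes had one, where 61.3% of all genes did. An unlisted region does not show that the tagged protein was absent.

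The count depended on the definition of a bound gene, most on the strength asked for. Asking for a summit within 100 bp of a TSS left 63 genes, where 6.53% of all genes passed, a 500 bp window left 67 (background 13.6%), and a 2 kb window gave 72 (19.2%). The 1216 strongest regions of the reproducible list held 49 of the genes, where 8.63% of all genes passed. Taking any base of a region in place of its summit gave 71 again (16.4%), using the annotated gene start alone gave 70 (14.5%), and giving each region to the nearest TSS alone gave 65 (10.9%). The 100 bp window and the stronger regions thus removed a smaller fraction of these genes than of all genes.

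Each replicate by itself gave a like picture. The 2433 strongest regions of replicate 1 lay at 63 of the 93 promoters (15.8% of all genes), and those of replicate 2 at 68 (15.3%). Of the 71 bound genes, 59 were among the strongest regions of both replicates, 4 in replicate 1 alone and 8 in replicate 2 alone. At the summits, the median signal was 100.1 in replicate 1 (24.3 to 481.4, 69 genes with a region) and 99.4 in replicate 2 (20.8 to 324.3, 71 genes). The log2 ratio of replicate 1 to replicate 2 had a median of 0.04 and an SD of 0.62 over genes, against 0.15 and 0.58 at regions of other bound genes, and 63 of 69 genes lay within 2-fold. These ratios compare the values as listed, and the authors' scaling of each replicate is unknown.

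**Figure D2:**
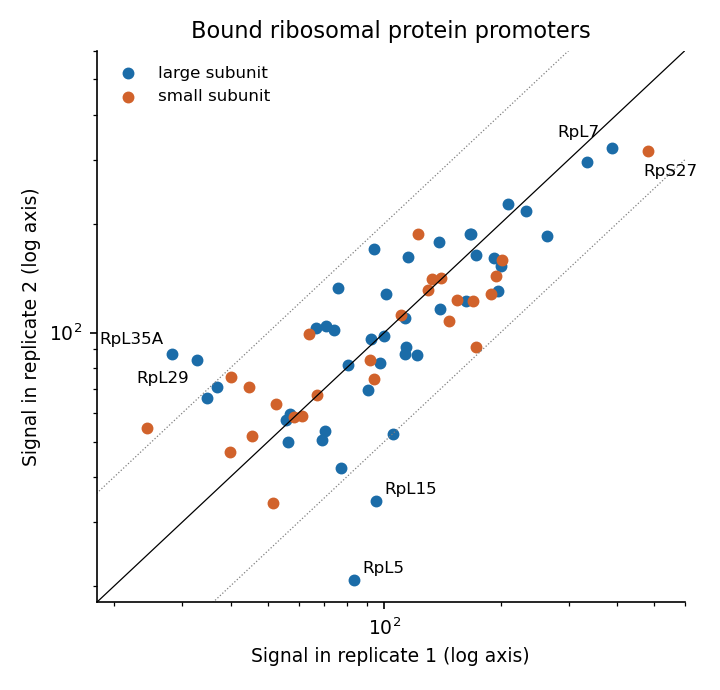
Signal at the summit in replicate 1 (x) and replicate 2 (y), both log axes, for the 69 bound genes with a region in both; the solid line marks equal values and the dotted lines 2-fold. RpL5 and RpL15 lie below the dotted lines and RpL35A and RpL29 above, while the strong promoters RpS27 and RpL7 stay between them.

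Replicates parted at a few weakly bound genes of the large subunit. RpL5 had 83.5 in replicate 1 and 20.8 in replicate 2 (log2 ratio 2.01), and RpL15 had 95.4 and 34.4 (1.47). The opposite held for RpL35A, with 28.2 and 87.2 (-1.63), and RpL29, with 32.8 and 83.8 (-1.35). In the combined list these 4 genes lay between 115.5 and 119.4, and each was among the strongest regions of 1 replicate alone. RpS3A and RpL18 had no replicate 1 region over the summit. RpS3A is the one ribosomal protein gene on chromosome 4, where replicate 1 listed 29 candidates in all and replicate 2 listed 238, so its signal of 241.9 comes with 117.4 in replicate 2 alone. Whether this difference in candidates bears on the missing region was not tested.

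Summits sat close to the TSS. The median distance was 37 bp at the bound ribosomal protein genes and 152 bp at other bound genes, and 88.7% against 37.3% lay within 100 bp. The signed distances had quartiles of -64.5 and -12 bp with a median of -35 bp, while those of other bound genes had quartiles of -264 and -40 bp around -116 bp. Among the gene groups described below, 5 of 6 bound ribosome biogenesis genes (83.3%) and 13 of 19 bound translation factor genes (68.4%) also lay within 100 bp. Their medians were 83.5 and 84 bp. Shares were lower for proteasome subunits (2 of 5, 40.0%) and mitochondrial ribosomal proteins (3 of 17, 17.6%). Each region was counted for every gene within 1 kb, so these distances are not like for like. Another gene was nearer to the summit at 33.5% of other bound genes, against 8.45% of the ribosomal protein genes. The side was alike, with 85.9% of summits upstream of the nearest TSS against 84.4%. By the gene models, 52 summits lay before the gene, 18 in its 5′ UTR and 1 behind the gene.

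**Figure D3:**
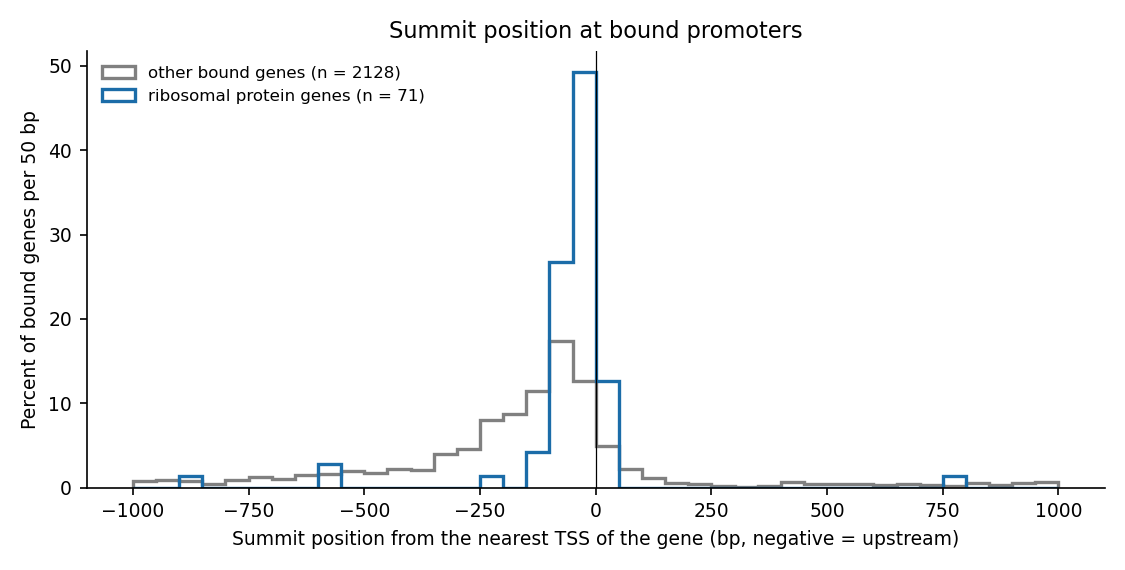
Position of the summit relative to the nearest TSS of the gene (bp, negative upstream), as percent of bound genes per 50 bp, in blue for the 71 ribosomal protein genes and in grey for 2128 other bound genes. The blue distribution is narrow, with a median of -35 bp, and the grey one has a long upstream tail. Genes that share a region are each counted.

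In 4 bound genes the summit lay over 500 bp away, nearer to another gene. The summit of RpS19b was at -883 bp and lay at +501 bp of CG5854. The summit of RpL35 was at -562 bp and lay at -27 bp of Rab18, which encodes a small GTPase. That of RpS15 was at -581 bp, at -271 bp of CG4927. That of RpS14b was at +759 bp, behind the gene, and at +35 bp of Ubr3, a ubiquitin ligase gene. These 4 are calls that the 500 bp window removed. A partner was nearer at 6 genes or 8.45% in all, among them RpLP0-like (14-3-3zeta), while the partner was nearer at 33.5% of other bound genes.

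Many bound genes shared their region with a neighbour, at a share near that of other bound genes. At 52 of the 71 bound genes (73.2%) the same region had its summit within 1 kb of the TSS of another protein-coding gene, and this was so at 65.7% of other bound genes. With a 500 bp window the number fell to 33 of the 67 genes bound by that window. Among the 10 strongest, the neighbours were Nup37 of the nuclear pore for RpS27 (summit at -131 bp from Nup37), Ripalpha of the replication protein A complex for RpL7 (-59 bp) and CG8132 for RpL34b (-224 bp). RpL14 shared its region with Nelf-E of the negative elongation factor (-95 bp), RpL32 with CG7943 (-232 bp) and RpL41 with the sodium channel gene NaCP60E (-97 bp). RpS20 shared with CG17271 (-230 bp) and RpL28 with eIF1, a translation initiation factor gene (-333 bp), and RpL23A and RpL17 shared with none. The region at RpL13 (169.2, -21 bp) was also that of Dref, which encodes DREF (-63 bp). The lists cannot say to which gene of such a pair a region belongs.

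The bound genes were spread over all 6 chromosome arms. On X, 15 of 15 genes were bound, on 3L 13 of 14, on 3R 16 of 23, on 2R 14 of 21 and on 2L 12 of 19, and RpS3A on chromosome 4 was bound. Of the genes with no second copy by name, 6 of 6 on X and 48 of 60 on the autosomes were bound. The calls at RpL35 and RpS14b on X were among those that the 500 bp window removed. Over all genes the bound share ranged from 13.8% on chromosome 4 to 17.5% on 3R. The median signal of bound ribosomal protein genes on X, 179.1, was nevertheless the lowest of the arms, against 219.6 on 2R.

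Copies of the same ribosomal protein gene were bound unequally. By name, 13 pairs of genes could be formed, and in 9 of them exactly 1 copy was bound, in 4 both, and in none neither. The choice of partners follows the symbols, so that RpL7-like, RpL24-like and RpLP0-like are included, although in yeast the counterparts of such proteins are ribosome assembly factors. By alignment of the translated gene models these 3 shared 33.7%, 29.7% and 19.1% of residues with the ribosomal protein, and the other pairs 44.5% to 100%.

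Of the lettered copies, RpS5a was bound with 298.5 (170.0 in replicate 1 and 122.4 in replicate 2, at -68 bp), while RpS5b, a copy known from the ovary, had a candidate of 39.2 (29.5 and 22.5, +5 bp). RpS10b had 272.7 (132.7 and 140.9), and RpS10a, known from the gonads, 38.1 (23.4 and 17.0). Both replicates gave the higher value to the same copy in each pair. RpS28b had 337.7 (194.7 and 143.6) against 72.1 for RpS28a (41.0 and 31.2), with summits at -22 and -85 bp. RpL10Ab had 123.7 (69.2 and 50.4), and RpL10Aa had no region in the combined list. RpS15Aa had 276.7 (173.1 and 91.1), and RpS15Ab, whose protein is 97.7% identical, had no region in any of the lists. In all 5 of these pairs the bound copy was also the higher one in each replicate that listed a region for it. The reproducible list was selected from these same replicates, so this order follows largely from the call itself.

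Numbered and "-like" pairs with 1 bound copy were ordered in the same way, which again follows largely from the call. RpL37-1 had 179.1 and RpL37-2 38.5 at +922 bp. RpL7 had 706.4 and RpL7-like 36.0. RpL22, which in flies carries a long N-terminal extension, had 348.9, and RpL22-like, known from the testis, had no region in any of the lists. RpL24 had 260.9 and RpL24-like 48.8 at -849 bp. In each of these 4 pairs the bound copy was the one first named.

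In 4 pairs both copies were bound. RpL34b had 453.0 and RpL34a 98.3 (34.7 in replicate 1 and 66.1 in replicate 2 at that summit), the b copy being higher in both replicates. RpS14a had 117.1 and RpS14b 98.3. These copies encode identical proteins and have TSSs 1156 bp apart on X, and the RpS14b region is the one at Ubr3. RpS19a had 140.3 at -2 bp, and RpS19b, known from the germ line, had 178.0 from the region nearer to CG5854. RpLP0 had 342.9 and RpLP0-like 216.9. With a window of 500 bp, RpS14b and RpS19b were no longer bound, and 11 pairs had exactly 1 bound copy.

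**Figure D4:**
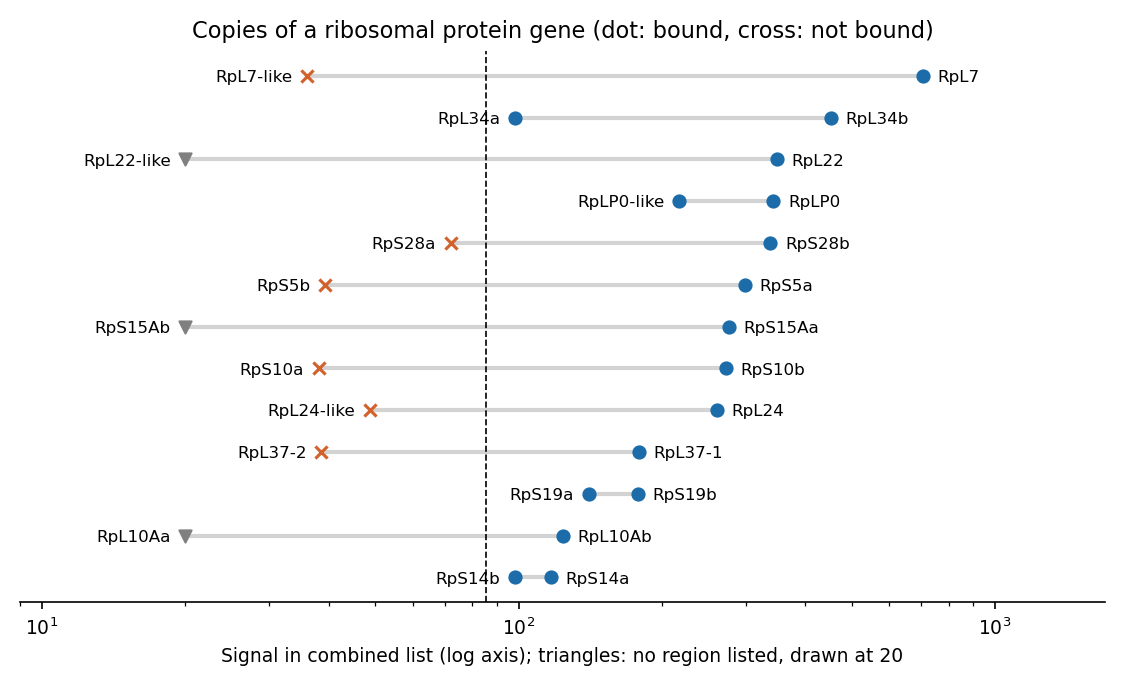
Combined signal (log axis) of both copies of 13 pairs, joined by a line; dots are bound copies, crosses unbound copies with a candidate, and triangles copies with no combined region, drawn at 20. In 9 pairs the line crosses the dashed mark of the weakest reproducible region, and RpL22-like, RpS15Ab and RpL10Aa have no region.

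Binding was also counted by whether a gene has a copy. Of 66 genes with no second copy by name, 54 were bound (81.8%), and of 27 with a copy, RpS28-like included, 17 were (63.0%). This split was chosen after the values were seen. The 12 unbound genes without a copy included RpS26, RpLP2, RpL12, RpS24, RpL40, RpL6, RpS13, RpS3, RpS9, RpS2 and RpL21, so an unbound promoter was not limited to spare copies.

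The promoters carried the elements known for this gene family. A TCT initiator lay within 20 bp of the annotated gene start in 49 genes (52.7%) and in 4.54% of all genes. When any annotated TSS was allowed, 80 genes (86.0%) had one, against 6.58% of all genes and 8.69% of the other bound genes. Among ribosomal protein genes it was found in 65 of the 71 bound (91.5%) and in 15 of the 22 unbound (68.2%). More than 1 TSS was annotated, and thus searched, in 53.5% of the bound and 31.8% of the unbound ribosomal protein genes and in 26.5% of all genes. Among the 10 strongest, RpL17 and RpS20 had none. Most unbound genes thus also had a TCT initiator when any annotated TSS was allowed. At the gene start alone, 39 of the 71 bound (54.9%) and 10 of the 22 unbound genes (45.5%) had one.

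The DRE was matched on both strands from 250 bases before to 50 after the gene start. It was present in 30.1% of the ribosomal protein promoters and in 9.36% of all promoters, at close shares in bound (31.0%) and unbound (27.3%) genes. The median signal was 207.4 in bound genes with a DRE and 191.7 in those without. Ohler motif 1 (GGTCACACT) was in 10.8% against 6.05% of all promoters. The letters TATAAA were in 48.4% against 45.8%, GAGAGA in 4.3% against 12.3% and the E-box CAGCTG in 9.68% against 17.7%. The E-box CACGTG was in 8.6% against 4.2% of all promoters. Its share was 8.45% in bound and 9.09% in unbound ribosomal protein genes, and 5.03% in other bound genes. The homeodomain core TAATTA was in 28.0% against 20.4% of all promoters, or 25.4% of bound ribosomal protein genes against 21.8% of other bound genes. In the unbound ribosomal protein genes its share was higher, 36.4%. The palindrome of paired-class homeodomains, TAAT and ATTA separated by 3 bases, was in 3.23% against 3.11%. It was in 1 bound and 2 unbound ribosomal protein genes (1.41% and 9.09%), and in 3.99% of other bound genes. No match says only that these letters were not in the window.

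**Figure D5:**
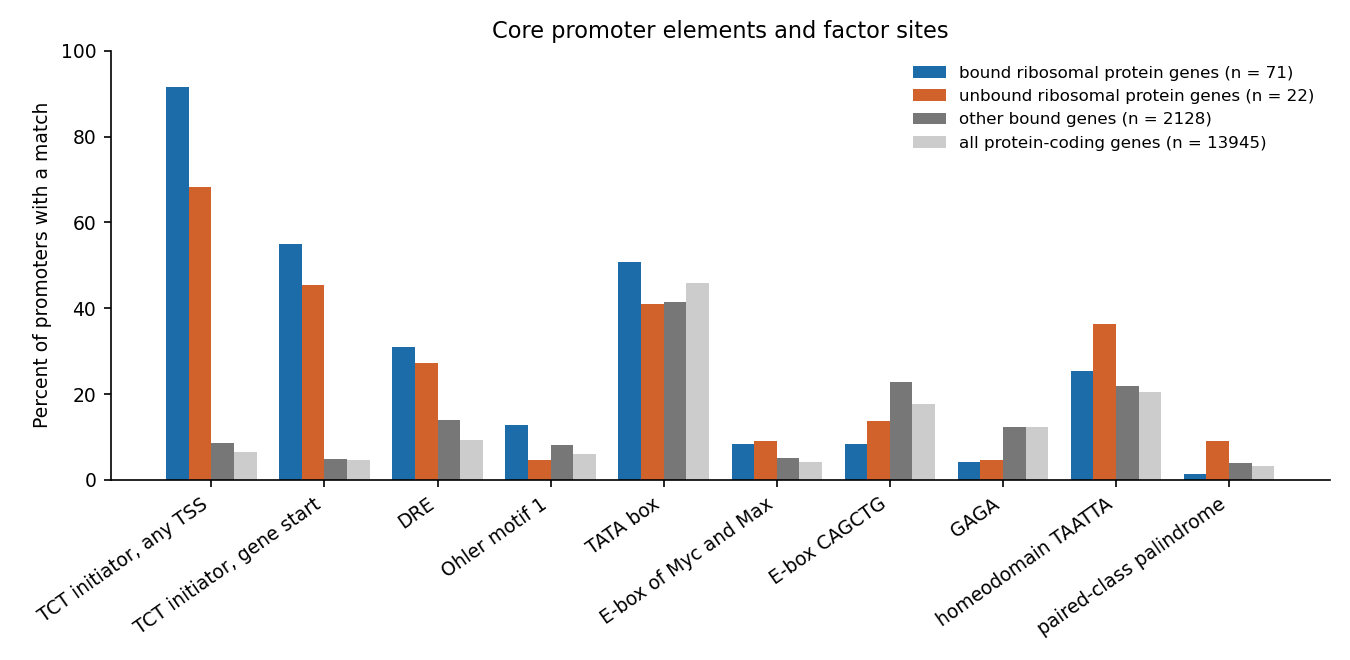
Percent of promoters with a match to each element, for bound and unbound ribosomal protein genes, other bound genes and all protein-coding genes; TCT initiators were sought within 20 bp of a TSS and the rest from 250 bases before to 50 after the gene start. TCT bars stand far above both backgrounds in bound (91.5% at any TSS) and unbound (68.2%) ribosomal protein genes.

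Within 100 bp of the summit the same elements were seen. A DRE was there in 21 of the 71 bound genes (29.6%), against 10.3% of the other bound genes, among them RpL41, RpL28 and RpS25 at the stronger end and RpS6 at the weaker. The E-box CACGTG was there in 10 (14.1% against 3.34%), among them RpL7, RpL34b, RpS28b, RpL11 and RpL24. Ohler motif 1 was there in 7 (9.86% against 3.76%), among them RpL7 and RpLP0. The letters TAATTA were there in 4, among them RpS20 and RpL23 (5.63% against 12.9%), so that here the share was below that of other bound genes, whereas in the promoter window it was above. The paired-class palindrome was at no summit of the 71 and at 2.02% of the others. Both homeodomain searches use TAAT and ATTA, so that their matches can overlap. CAGCTG (5.63% against 15.3%), GAGAGA (1.41% against 8.22%) and TATAAA (19.7% against 26.6%) also had lower shares than at other bound genes. Genes that share a region count it more than once in these shares. Summits of the ribosomal protein genes lay nearer to the TSS than those of other bound genes, so the windows are not alike.

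Other gene groups of protein synthesis and turnover had bound shares from 10.4% to 35.8%. The mitochondrial ribosomal proteins were bound at 17 of 73 genes (23.3%), with a median distance of 166 bp. Translation factors were bound at 19 of 53 (35.8%), with signals from 88.6 to 1375.8. The highest were at eIF2Bbeta (1375.8, summit at -674 bp), above RpS27, and at eIF6 (763.6, -91 bp). Of the bound mitochondrial ribosomal protein genes, mRpL41 (1077.0), mRpS23 (842.7) and mRpS10 (830.1) also lay above RpS27, while their median was 152.3. Ribosome biogenesis factors were bound at 6 of 32 (18.8%), a list that also holds eIF6, and proteasome subunits at 5 of 48 (10.4%). The differences between these shares were not tested. Another gene was nearer to the summit at 58.8% of the bound mitochondrial ribosomal protein genes and 26.3% of the bound translation factor genes. For biogenesis factors this was 16.7%, for proteasome subunits 60.0%, and for the cytosolic ribosomal protein genes 8.45%. The region counted for eIF1 is also that of RpL28.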

How the data were processed

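Anti-GFP ChIP-seq of CG9876-GFP embryos was analysed from the deposited dm6 lists of both replicates, of both combined, and of reproducible regions selected from these by irreproducible discovery rate, per the deposited text files. Column 7 holds the authors' signal value, in a unit not given in the sources used here, and column 9 the −log10 of a q-value deposited by the authors, which was read but not used to rank. Which aligner and peak caller were used is not given in the sources used here, and depth is unknown. Regions were called per replicate and on both combined. Gene models were Ensembl release 115 on 6 chromosome arms, with 19607 distinct TSSs. A replicate's strongest regions were its first 2433 by signal. Members, gene lists, motifs and the splits by copy or element were chosen with earlier results of these data known, so no test was made on them and shares are descriptions. Genes are not replicates, and the signal of different lists may not be on a common scale. The genes named were the 10 strongest bound, the unbound, all copies in pairs, those nearest the threshold, neighbours sharing a region, and the extremes between replicates; others were named for their role. Some genes that this rule names are not reported here. Proteins were translated from the gene models and aligned globally, with identity as a share of the shorter. Region assignment and sequence windows were tested on simulated data. Python 3.11.15, numpy 2.4.6, pandas 2.3.3, scipy 1.17.1, Biopython 1.88 and matplotlib 3.10.9 were used.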

Additional observations from a re-analysis of the deposited data

How the results depend on the processing

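The number of bound genes stayed between 49 and 90 under 8 other definitions, within 1.5 times of the 71 reported, and at 68 without replicate 1 and 63 without replicate 2. The median signal at bound genes was 99.4 without replicate 1 and 100.1 without replicate 2, each on the scale of the remaining replicate's own list, and 208.3 with a 500 bp window, which leaves out 4 genes below the median. The median distance ranged from 27.5 to 43 bp. The number of pairs with exactly 1 bound copy ranged from 9 to 11. The share with a TCT initiator rose from 52.7% at the gene start to 67.7% within 50 bp, where the share of all genes rose to 10.9%, and to 86.0% at any annotated TSS. The number of bound genes that share their region with another gene was 52 with a 1 kb window and 33 with 500 bp. No paired analysis was possible because 1 group has no contrast. Depth is unknown, so no limit of detection can be given, and a gene outside the reproducible list may be bound below it.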

Other observations

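Many ribosomal protein genes hold small nucleolar RNA (snoRNA) genes in their introns, which guide the modification of ribosomal RNA. Of the 93 genes, 29 contained at least 1 annotated snoRNA on the same strand (31.2%), against 0.602% of all protein-coding genes. RpS5a held 14, RpS7 held 7, and RpL28 and RpS16 held 5 each. Of the 29 hosts, 27 were bound (93.1%), against 44 of the 64 ribosomal protein genes without a snoRNA (68.8%), and RpS9 was among the unbound hosts. Of the genes with no second copy by name, 24 of 26 hosts and 30 of 40 others were bound. Of the 55 hosts that are not ribosomal protein genes, 20 were bound (36.4%), and over all genes 15.8% were. The grouping by snoRNA was made with the binding results known, and no test was made.

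Bound ribosomal protein genes had a median length of 1387 bp against 3510 bp for other bound genes, so a 1 kb window covers much of such a gene. Their promoters had a median GC content of 37.3%, against 38.0% at other bound genes.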
